A study of Homo sapiens with 33 samples.

Results

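The 39 nuclear receptors described here are those that lie outside the usual gonadal set of this family, and they were taken by gene symbol from a count table of 58735 genes, where each symbol had 1 row. They span the retinoid, thyroid hormone, vitamin D and lipid sensing receptors, the clock receptors, the HNF4, TR2/TR4, TLX and COUP-TF orphans, the oestrogen-related receptors, the steroid receptors NR3C1, NR3C2 and PGR, the NR4A genes, and NR5A2, NR6A1 and NR0B2. Receptors outside these 39, such as RARB and NR0B1, are not members and serve only for comparison.

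The RNA came from H9 human embryonic stem cells, an established line, carrying a conditionally stabilised CRISPR activator (DDdCas9VP192) and guides against the promoter of FOXL2, a forkhead gene of the ovary. All groups were from this 1 clone and followed the same 14-day gonadal differentiation through an intermediate mesoderm stage. The 11 groups were day 4, before any induction, and CTRL and IND every second day from day 6 to day 14. IND cells received doxycycline and trimethoprim from day 4, whereas CTRL cells received neither, and no group received both agents without the activator. Each group had 3 libraries, described by the study as technical replicates, so that every p below measures the spread between such libraries only. Not every IND cell expresses FOXL2, by the study's own account, and the libraries are from mixed cells.

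Nuclear receptors are transcription factors that share a zinc finger DNA-binding domain and, in most members, a pocket for a small lipophilic ligand such as a steroid, a retinoid or a fatty acid. Many bind DNA as heterodimers with a retinoid X receptor (RXR), on repeats of the hexamer AGGTCA, while steroid receptors bind as homodimers and several orphans as monomers. In the developing gonad, retinoic acid, steroids and orphan receptors are all known to take part in differentiation.

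FOXL2 itself was at 147.5 to 577.1 CPM (counts scaled to a common library total, on TMM sizes) in the 15 IND libraries. It was at no more than 0.388 CPM in the other 18, so that each library fitted its label as induced or not. These levels cannot check the day of a library. Library totals ran from 23940837 to 51912815 counts. Of 7 gonadal and coelomic epithelial markers, NR5A1 was at a mean of 0.417 CPM at most, and 2 to 4 were lower in IND at each day with none higher. IND replicate 2 of day 10 stood apart: its mean correlation with its own group was 0.92, mitochondrial genes took 0.691% of its counts, and the summed level of 5 pluripotency markers was 1912 CPM, against 272.2 to 335.1 CPM in the CTRL libraries of that day. That sum was 342.9 and 408.8 CPM in the other IND libraries of day 10 and 1933 to 2131 CPM at day 4. The receptor counts of day 10 are therefore given with and without this library, as are the counts of the gene and marker lists. For the gonadal and coelomic epithelial markers they were 3 lower with it and 4 lower without it. Less far apart were IND replicate 1 of day 12, whose counts differed from those of its group by a chi-square of 122.7 and 95.05 per gene, against 17.75 between the other two, and day 4 replicate 3, with 71.38 and 128.2 against 17.35. Mitochondrial genes took 1.141% of the counts of the latter and 3.335% and 4.278% in its group.

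Per length, the family covered a wide range of levels. By the deposited FPKM (fragments scaled by gene length and library depth), averaged over all 33 libraries, the orphan NR2F6 led with 58.3, followed by NR2F1 (COUP-TFI) with 33.6, NR6A1 (germ cell nuclear factor) with 20.1, RXRB with 14.7 and RARG with 12.4. Library ranges of RXRB (5.46 to 19.8 FPKM), RARG (6.67 to 22.5 FPKM), RARA (7.95 to 16.8 FPKM), THRA (5.46 to 15.8 FPKM) and RXRA (7.28 to 16.5 FPKM) overlapped, so that their order is not fixed. NR6A1 ran from 4.65 to 55.3 FPKM, across all of these ranges, and its mean stood at 51.9 FPKM at day 4 and at 5.43 FPKM at day 14 in IND, below those of RARG (11.39 FPKM) and THRA (15.01 FPKM). A mean of at least 1 FPKM in at least 1 group was reached by 24 of the 39 genes. PGR, the progesterone receptor, had at most 17 counts in any library, and NR0B2, a repressor of other receptors that is known from liver, at most 2 counts. NR2E1 (TLX), a receptor of neural stem cells, had at most 16 counts, except for 51 counts in IND replicate 2 of day 10. These 3 genes passed the filter on low counts in no comparison. NR2E3, a photoreceptor orphan with at most 26 counts, passed it for IND at days 10 and 12 and in the interaction of day and induction given below.

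**Figure D1:**
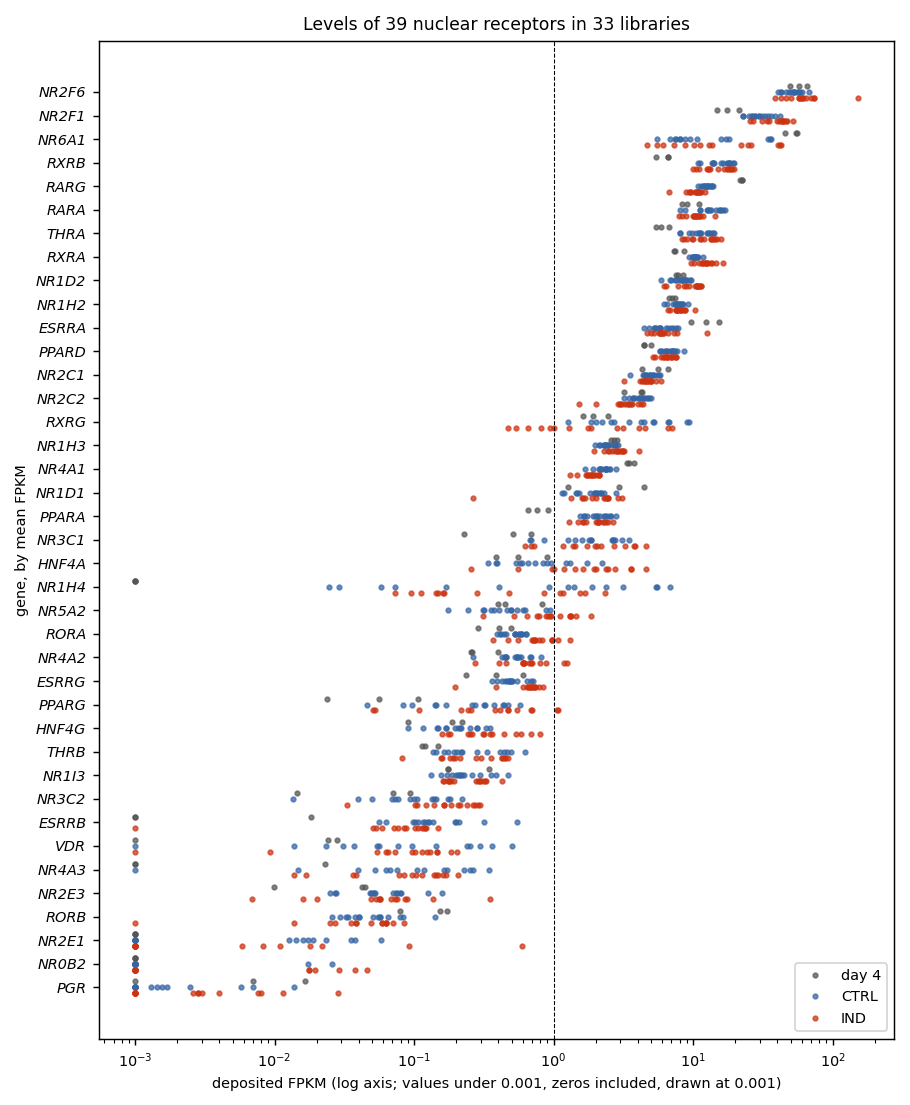
Deposited FPKM of the 39 nuclear receptors on a log axis, 1 point per library, coloured by day 4, CTRL or IND, and ordered by the mean over all 33 libraries; the dashed line is at 1 FPKM. NR2F6 is at the top with a mean of 58.3 FPKM, and PGR and NR0B2 are at the bottom.

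The comparison of IND with CTRL of the same day asked which receptors moved with FOXL2 activation. Of the 39 genes, 14 were called (edgeR quasi-likelihood test, Benjamini-Hochberg adjusted p under 0.05 over all genes tested) on at least 1 day, giving 23 calls, 15 higher and 8 lower in IND. At day 6, 2 of 33 tested receptors were called, 1 higher and 1 lower, beside 3.66% of all genes tested (1.29% higher and 2.37% lower). At day 8, 11 of 35 were called, 9 higher and 2 lower, beside 14.2% of all genes (7.49% higher and 6.67% lower), and the median log2 fold change of the 35 was 0.32 against 0.01 over all genes. At day 10, 2 of 36 were called, 1 higher and 1 lower, beside 2.03% of all genes (0.856% higher and 1.18% lower). At day 12, 2 of 36 were called, both higher, beside 5.42% (2.38% higher and 3.04% lower), and at day 14, 6 of 35 (2 higher and 4 lower) beside 8.43% (3.21% higher and 5.22% lower). Since a filter on low counts decides which genes are tested, these counts describe the receptors that passed it and not the family. Calls in the gene and marker lists below stand beside the same shares of all genes. Where a library is left out, the shares are 18.2% at day 10 without IND replicate 2 and 9.65% at day 12 without IND replicate 1. RXRG was called on 4 days, NR2F1 on 3, and ESRRG, NR1D2, RORA and VDR on 2 each.

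Of the 23 calls, 6 held when any 1 library was left out, namely RXRG, RXRA, NR1D2, NR2F1 and NR6A1 at day 8 and RARA at day 14. Of these 6, NR1D2 and NR2F1 were not called in 1 fit over all 33 libraries (edgeR adjusted p = 0.109 and 0.0549), and the other 4 held under every alternative run. The other 17 lost their call in at least 1 fit with a library fewer, and each of these is given with its value. Where groups are said below not to overlap, all 3 IND libraries were above or below all 3 CTRL libraries, as they were for 19.1%, 33.1%, 30.9%, 30.3% and 26.7% of all genes tested at days 6 to 14. Of the receptors tested, the numbers without overlap were 8 of 33, 19 of 35, 14 of 36, 14 of 36 and 12 of 35.

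**Figure D2:**
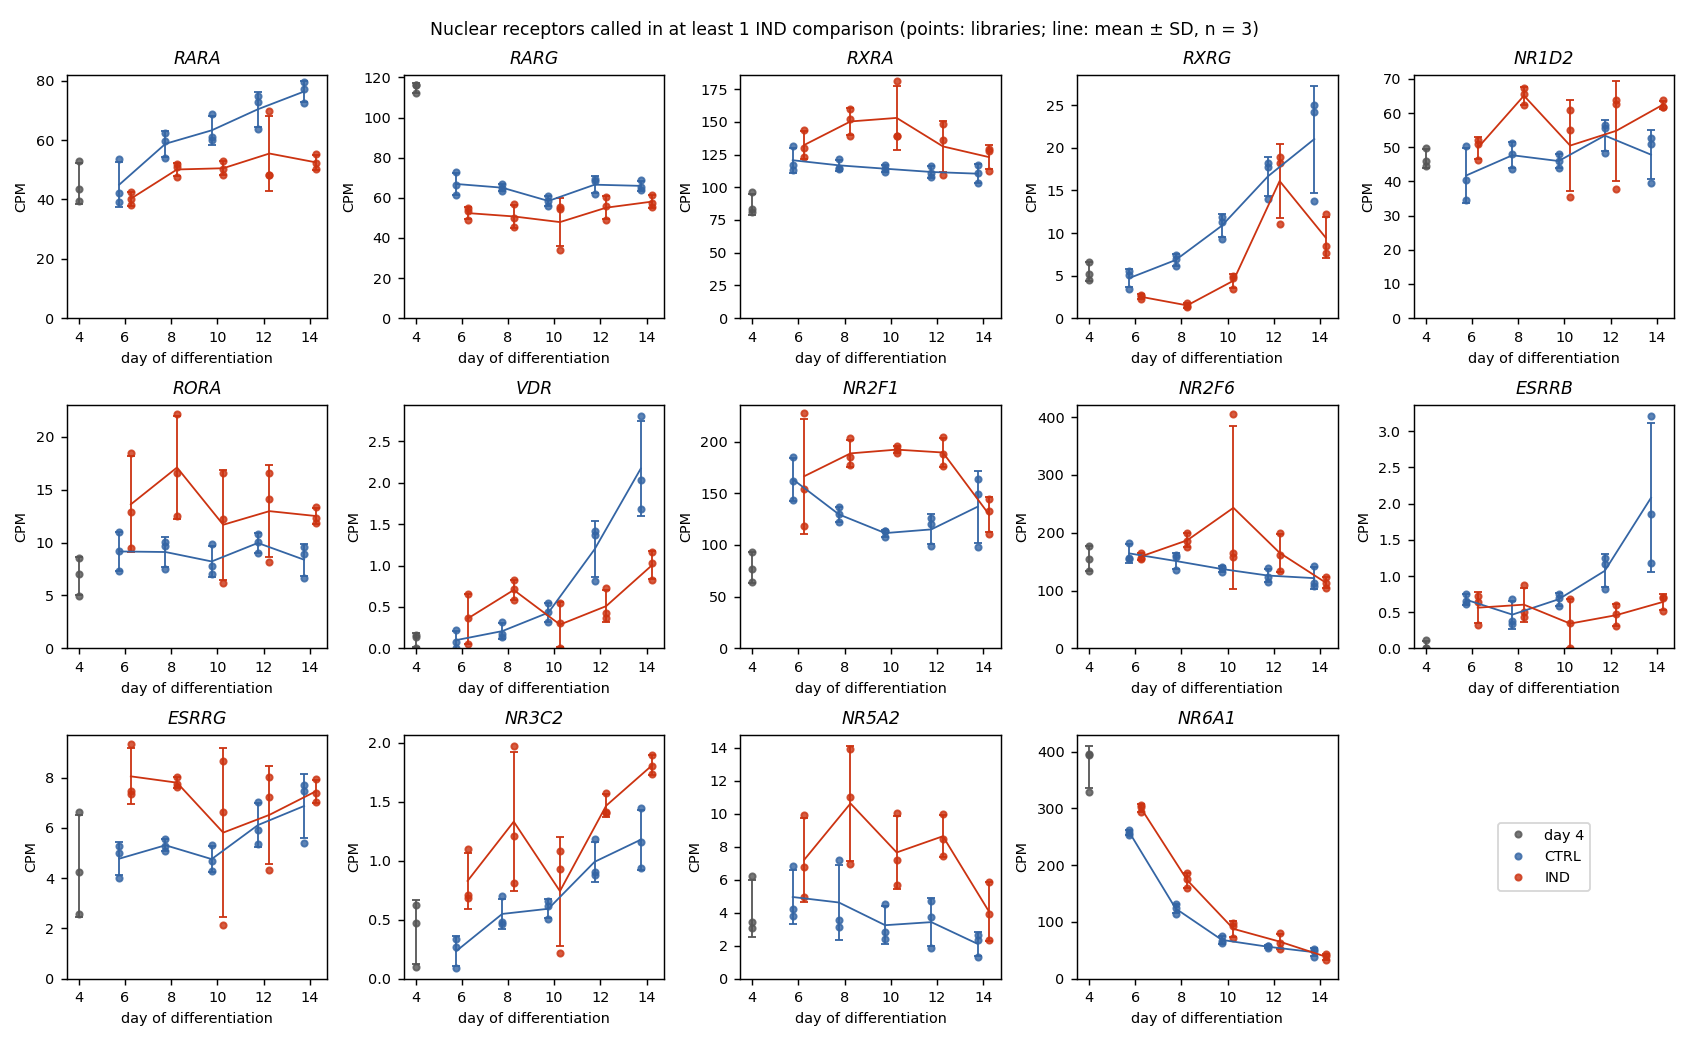
Levels in CPM by day for the 14 receptors called in at least 1 IND comparison; points are libraries, lines join group means and bars are 1 SD (n = 3), in blue for CTRL, red for IND and grey for day 4. RXRG is lower in IND at days 6, 8, 10 and 14, and NR2F1 is higher in IND at days 8, 10 and 12.

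Of the RXRs, the shared heterodimer partners, RXRG moved most. RXRG (RXR gamma, on chromosome 1 at 165400917 to 165445355, minus strand) was at 5.11, 3.46 and 5.57 CPM in the CTRL libraries of day 6 and at 2.73, 2.59 and 2.20 CPM in the IND libraries. At day 8 it was at 6.08, 7.43 and 6.98 CPM in CTRL and at 1.44, 1.26 and 1.79 CPM in IND. At day 10 the CTRL libraries held 11.3, 11.9 and 9.35 CPM and the IND libraries 4.76, 3.45 and 4.98 CPM. On each of these days every IND library was below every CTRL library. At day 12 CTRL was at 14.1, 17.8 and 18.2 CPM and IND at 18.3, 19.0 and 11.1 CPM, so that the groups overlapped. At day 14 the CTRL libraries were at 25.1, 24.2 and 13.8 CPM and the IND libraries at 7.64, 12.2 and 8.48 CPM, again without overlap.

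In log2 terms the IND change of RXRG was -0.89 ± 0.24 (standard error; edgeR adjusted p = 0.0457) at day 6, -2.17 ± 0.20 (edgeR adjusted p = 5.92e-05) at day 8, -1.29 ± 0.21 (edgeR adjusted p = 0.0376) at day 10 and -1.15 ± 0.25 (edgeR adjusted p = 0.0256) at day 14. Without IND replicate 2 the day 10 value was -1.16 ± 0.15 (edgeR adjusted p = 0.000106). The day 6 call was lost without CTRL replicate 1 or 3 or IND replicate 2 or 3 (highest edgeR adjusted p = 0.213), the day 10 call without any library but IND replicate 2 (highest edgeR adjusted p = 0.257), and the day 14 call without CTRL replicate 1 or 2 or IND replicate 1 or 3 (highest edgeR adjusted p = 0.107). RXRG was also the 1 receptor of 36 whose IND effect differed between days in the edgeR interaction test of day and induction (adjusted p = 0.00445), beside 2.38% of all genes.

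The promoter of RXRG is shown because this receptor was called most often in IND, and those of NR2F1 and NR6A1 because they moved the other way at day 8. Each is the 300-base RefSeq window (GRCh38.p14) from 250 bases before to 50 bases after a start site, written 5′ to 3′ on the strand of the gene, at chr1:165445077-165445376 (minus), chr5:93582972-93583271 (plus) and chr9:124771262-124771561 (minus). Capitals mark a match to AGGTCA on either strand.
RXRG: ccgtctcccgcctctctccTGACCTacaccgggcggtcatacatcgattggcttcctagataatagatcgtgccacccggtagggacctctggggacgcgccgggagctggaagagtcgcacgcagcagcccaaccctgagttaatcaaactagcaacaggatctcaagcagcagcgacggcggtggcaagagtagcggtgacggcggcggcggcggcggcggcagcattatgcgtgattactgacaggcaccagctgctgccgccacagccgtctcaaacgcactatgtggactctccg
NR2F1: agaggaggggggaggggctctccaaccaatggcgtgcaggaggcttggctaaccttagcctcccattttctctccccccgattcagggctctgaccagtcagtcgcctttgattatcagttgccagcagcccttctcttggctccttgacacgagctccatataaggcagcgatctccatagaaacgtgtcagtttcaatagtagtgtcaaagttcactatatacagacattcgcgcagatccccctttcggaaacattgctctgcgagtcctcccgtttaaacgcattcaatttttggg
NR6A1: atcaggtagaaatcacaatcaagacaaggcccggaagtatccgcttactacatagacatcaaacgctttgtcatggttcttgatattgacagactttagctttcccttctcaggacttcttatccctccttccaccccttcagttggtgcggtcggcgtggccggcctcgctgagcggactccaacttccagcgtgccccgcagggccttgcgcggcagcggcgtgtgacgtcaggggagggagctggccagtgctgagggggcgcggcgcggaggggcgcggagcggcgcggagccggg
The RXRG match starts 231 bases before the start site, and the other sequences hold none. A window was at hand for 34 of the 39 receptors, and AGGTCA was in 6 of them (RARA, RXRG, PPARG, NR1H3, NR1H4 and NR5A2), against 13.8% of 35116 windows of all genes. The steroid receptor hexamer AGAACA was in 3 of the 34 (RXRB, PPARD and NR2C2) against 14.8% of all windows, and the forkhead core GTAAACA was in 0 of the 34 against 3.42%. Tandem AGGTCA copies on 1 strand spaced by 1, 4 or 5 bases, which contain the single hexamer, were in none of the 34. Both strands were searched, and 28 of the 34 windows start within 1000 bases of the gene start in the count table.

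RXRA, the broadly expressed RXR, was at 113.9, 121.7 and 114.6 CPM in CTRL and at 159.9, 151.8 and 139.1 CPM in IND at day 8, a log2 fold change of 0.38 ± 0.07 (edgeR adjusted p = 0.00612) with no overlap. RXRB was not called in any IND comparison. Among the retinoic acid receptors (RARs), which bind DNA with an RXR, RARG was at 64.7, 63.4 and 67.0 CPM in CTRL and at 45.6, 49.7 and 56.8 CPM in IND at day 8 (-0.35 ± 0.09, edgeR adjusted p = 0.0206). This call was lost without CTRL replicate 1 or 3 or IND replicate 1 or 2 (highest edgeR adjusted p = 0.0973). RARA was at 77.2, 79.4 and 72.4 CPM in CTRL and at 52.2, 55.2 and 50.1 CPM in IND at day 14 (-0.54 ± 0.08, edgeR adjusted p = 0.00115). The RARA groups lay far apart relative to their spread, with SDs of 3.59 and 2.53 CPM.

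Of 11 genes known to respond to retinoic acid, 1 was higher and 1 lower in IND at day 6, 1 higher at day 10 (3 higher and 1 lower without IND replicate 2) and 2 higher at day 12. At day 8, 3 were higher and 1 lower, and at day 14, 2 were higher and 4 lower, with medians of 0.45 and -0.19 over those tested, against 0.01 and 0.00 over all genes. RARRES3, a retinoid-inducible phospholipase gene, was called higher on all 5 days, with a day 8 mean of 0.0854 ± 0.054 CPM in CTRL and 4.74 ± 2.69 CPM (SD, n = 3) in IND. TGM2, a transglutaminase, rose by 1.15 ± 0.10 (log2, edgeR adjusted p = 1.1e-05) at day 14. CYP26C1 and CYP26B1, which degrade retinoic acid, changed at day 14 by -2.83 ± 0.49 (edgeR adjusted p = 0.00263) and -0.70 ± 0.15 (edgeR adjusted p = 0.0086). A link of these changes, or of that in RARRES3, to the receptors was not tested.

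Neuronal, neural crest and muscle markers were lower in IND on some or all of the days on which RXRG was. Of 8 neuronal markers, 6 were called lower at day 8, 4 at day 10 and 6 on each of the last 2 days, and none was called at day 6 or called higher; their summed level was 100.9 to 149.2 CPM in CTRL and 59.9 to 70.3 CPM in IND at day 8, and 416.9 to 748.8 CPM against 291.3 to 364.8 CPM at day 14. Without IND replicate 2, 6 were lower at day 10, and without IND replicate 1, 0 were called at day 12. Of 5 neural crest and glial markers, 4 were lower at day 6, 4 at day 8, 0 at day 10 (3 without IND replicate 2), 3 at day 12 (4 without IND replicate 1) and 3 at day 14. At day 8 their summed level was 293.4 to 477.2 CPM in CTRL and 164.6 to 180.0 CPM in IND. At day 12, when the RXRG groups overlapped, the neuronal sum was still 284.4 to 530.5 CPM in CTRL against 129.1 to 213.1 CPM in IND. The summed level of 6 muscle markers was 120.8 to 150.8 CPM in CTRL and 87.5 to 108.3 CPM in IND at day 6. It was 126.1 to 154.9 against 72.6 to 110.1 CPM at day 8 and 203.9 to 216.5 against 101.5 to 155 CPM at day 10. At day 14 it was 133.1 to 194.6 against 76.02 to 80.05 CPM, while at day 12 the groups overlapped. Of the 6, 1 was lower at each of days 6, 10 and 12 (2 at day 10 without IND replicate 2), 2 at days 8 and 14 and none higher. The part of any such cells in the RXRG result was not tested, and in bulk RNA fewer cells of a type and less RNA per cell cannot be told apart.

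VDR, the vitamin D receptor, was low throughout and was called in opposite directions. At day 8 it was at 0.178, 0.313 and 0.134 CPM in CTRL and at 0.822, 0.582 and 0.712 CPM in IND (1.75 ± 0.44 log2, edgeR adjusted p = 0.0232). At day 14 it was at 2.03, 1.69 and 2.80 CPM in CTRL and at 1.04, 0.827 and 1.16 CPM in IND (-1.09 ± 0.31 log2, edgeR adjusted p = 0.0418). The groups did not overlap on either day, but the interaction test over days did not pass (edgeR adjusted p = 0.119). The day 8 call was lost without CTRL replicate 1 or 3 or IND replicate 1 or 2 (highest edgeR adjusted p = 0.108), and the day 14 call without CTRL replicate 1 or 3 or any IND replicate (highest edgeR adjusted p = 0.14).

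The thyroid hormone receptors THRA and THRB, the fatty acid sensors PPARA, PPARD and PPARG, the oxysterol receptors NR1H2 and NR1H3 (LXRs) and the xenobiotic sensor NR1I3 (CAR) were called in no IND comparison. PPARG, the adipogenic member, had a day 10 mean of 1.29 ± 0.15 CPM in CTRL and 2.60 ± 0.54 CPM in IND (1.02 ± 0.31 log2, edgeR adjusted p = 0.185), and it was called higher without IND replicate 2 (1.14 ± 0.23 log2, edgeR adjusted p = 0.00371). NR1H4, the bile acid receptor FXR, had a day 10 mean of 5.10 ± 1.77 CPM in CTRL and 0.95 ± 0.68 CPM in IND (edgeR adjusted p = 0.1), and was called lower there without IND replicate 2 (-2.13 ± 0.51 log2, edgeR adjusted p = 0.0372). At day 6, near the floor, NR1H4 went the other way, with means of 0.138 CPM in CTRL and 0.631 CPM in IND (2.17 ± 0.63 log2, edgeR adjusted p = 0.0735). At day 14 the change was -1.81 ± 0.45 (log2, edgeR adjusted p = 0.0666), and DESeq2 called it. The groups did not overlap at days 6, 10 and 14. Of 9 PPAR target genes, 1 was higher at day 8 (ANGPTL4, a lipoprotein lipase inhibitor, 0.70 ± 0.20) and 1 at day 10 (3 higher and 1 lower without IND replicate 2). Of 7 LXR targets, 1 was higher and 2 lower at day 10 without IND replicate 2 and none with it, 2 were lower at day 8 and 2 lower and 1 higher at day 14: the cholesterol exporter ABCA1 rose by 0.58 ± 0.10, and the lipogenic genes SREBF1 and SCD changed by -0.49 ± 0.09 and -0.37 ± 0.10.

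RORA and NR1D2 (REV-ERB beta), an activator and a repressor that bind the same element in clock genes, were both higher in IND at days 8 and 14. RORA was at 9.72, 10.1 and 7.51 CPM in CTRL and at 22.2, 16.6 and 12.5 CPM in IND at day 8 (0.92 ± 0.21, edgeR adjusted p = 0.0169), and at 9.56, 6.67 and 8.89 CPM against 12.3, 11.8 and 13.3 CPM at day 14 (0.58 ± 0.16, edgeR adjusted p = 0.0399). NR1D2 was at 51.3, 48.0 and 43.7 CPM in CTRL and at 65.7, 62.3 and 67.4 CPM in IND at day 8 (0.46 ± 0.08, edgeR adjusted p = 0.00289). At day 14 it was at 51.0, 52.8 and 39.7 CPM against 63.7, 61.8 and 61.8 CPM (0.39 ± 0.10, edgeR adjusted p = 0.0354). None of these 4 comparisons overlapped between groups. RORA lost its day 8 call without CTRL replicate 1 or 3 or IND replicate 2 (highest edgeR adjusted p = 0.0735) and its day 14 call without CTRL replicate 1 or 2 or any IND replicate (highest edgeR adjusted p = 0.153). NR1D2 lost its day 14 call without CTRL replicate 1 or 3 or any IND replicate (highest edgeR adjusted p = 0.12).

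The relatives NR1D1 (REV-ERB alpha) and RORB were not called in IND. Of 15 other clock genes, 2 were higher and 1 lower at day 8, beside 14.2% of all genes called. At day 14, 2 were lower, beside 8.43%. None was called at days 6, 10 and 12 (4 higher and 2 lower at day 10 without IND replicate 2, beside 18.2%). TEF and CRY2 rose by 0.56 ± 0.09 and 0.44 ± 0.10 at day 8, and BHLHE41 and BHLHE40, repressors of the clock, changed by -1.34 ± 0.38 and -0.85 ± 0.13 at day 14. The genes THRA and NR1D1 overlap on opposite strands, as do NR1D2 and NKIRAS1. Of the other receptors called in IND, RORA overlaps 9 genes on the opposite strand, NR6A1 5, and RARA and VDR 2 each. NR2F1, ESRRB, NR3C2 and NR5A2 overlap 1 each, and none of these partners is annotated as protein coding. The libraries do not keep strand, so reads of such partners cannot be told apart.

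NR2F1, an orphan of the COUP-TF family that generally represses transcription, was higher in IND on 3 consecutive days. At day 8 it was at 130.2, 121.9 and 136.5 CPM in CTRL and at 184.8, 177.5 and 203.4 CPM in IND (0.55 ± 0.07, edgeR adjusted p = 0.000663). At day 10 it was at 113.7, 113.1 and 107.6 CPM in CTRL and at 195.6, 188.7 and 192.3 CPM in IND (0.79 ± 0.09, edgeR adjusted p = 0.0137). At day 12 the values were 126.1, 98.6 and 120.4 CPM against 176.0, 204.2 and 188.0 CPM (0.72 ± 0.13, edgeR adjusted p = 0.0152). The groups were apart on all 3 days, while at days 6 and 14 they overlapped. The day 10 value was 0.80 ± 0.06 (edgeR adjusted p = 1.36e-06) without IND replicate 2, and the call was lost without any of the other 5 libraries (highest edgeR adjusted p = 0.142). At day 12 it was lost without CTRL replicate 2 or 3 or IND replicate 2 (highest edgeR adjusted p = 0.0729). Of 5 endothelial markers, 4 were called higher in IND at day 8, 2 at day 10 and 3 at day 12. Without IND replicate 2, 4 were higher at day 10. None was higher at days 6 and 14, and 1 was lower at day 6. Summed, 5 intermediate mesoderm markers were at 14.4 to 16.4 CPM in CTRL and 23.5 to 38.2 CPM in IND at day 8. At day 14 they were at 10.8 to 15.1 against 18.8 to 26.3 CPM. The part of any such cells in the NR2F1 values was not tested.

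NR2F6, a relative of NR2F1, was at 134.7, 157.2 and 161.5 CPM in CTRL and at 186.1, 199.2 and 175.4 CPM in IND at day 8 (0.32 ± 0.08, edgeR adjusted p = 0.0286), a call lost without CTRL replicate 1 or 3 or IND replicate 1 or 2 (highest edgeR adjusted p = 0.148). The testicular orphan receptors NR2C1 and NR2C2 (TR2 and TR4) were not called in the 5 comparisons. HNF4A, a receptor of endoderm and liver, was not called either, with a day 8 mean of 7.69 ± 4.39 CPM in CTRL and 25.7 ± 7.82 CPM in IND (1.76 ± 0.46 log2, edgeR adjusted p = 0.0685). It was called at day 8 by DESeq2, with a mean of at least 50 counts, with the replicate block and in 1 fit over all 33 libraries. At day 12, DESeq2, the replicate block and the fit without a filter on low counts called it. Its relative HNF4G had a day 12 mean of 0.983 ± 0.035 CPM in CTRL and 2.27 ± 0.92 CPM in IND (1.21 ± 0.32 log2, edgeR adjusted p = 0.0657).

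NR5A2 (LRH-1), an orphan that shares its binding site with NR5A1, was higher in IND at day 12. It was at 7.44, 8.49 and 9.98 CPM against 1.82, 4.69 and 3.76 CPM in CTRL (1.34 ± 0.32, edgeR adjusted p = 0.0481). Those groups did not overlap, and the call was lost without any 1 of the 6 libraries (highest edgeR adjusted p = 0.133). The summed level of 7 endoderm and liver markers, which include none of the 39 receptors, was 37.0 to 98.6 CPM in CTRL and 172.2 to 300.6 CPM in IND at day 12. At day 8 that sum was 70.2, 164.2 and 73.2 CPM in CTRL and 418.3, 336.6 and 195.8 CPM in IND, and HNF4A and NR5A2 were highest in the same library of each group (HNF4A at 33.2 and NR5A2 at 13.9 CPM in IND replicate 1). Of these 7 markers, 2 were called higher at day 12, namely FOXA2 and AFP (1 without IND replicate 1), and none at days 6, 8 and 10 (1 higher at day 10 without IND replicate 2). The part of endoderm cells in the NR5A2 and HNF4 values was not tested.

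**Figure D3:**
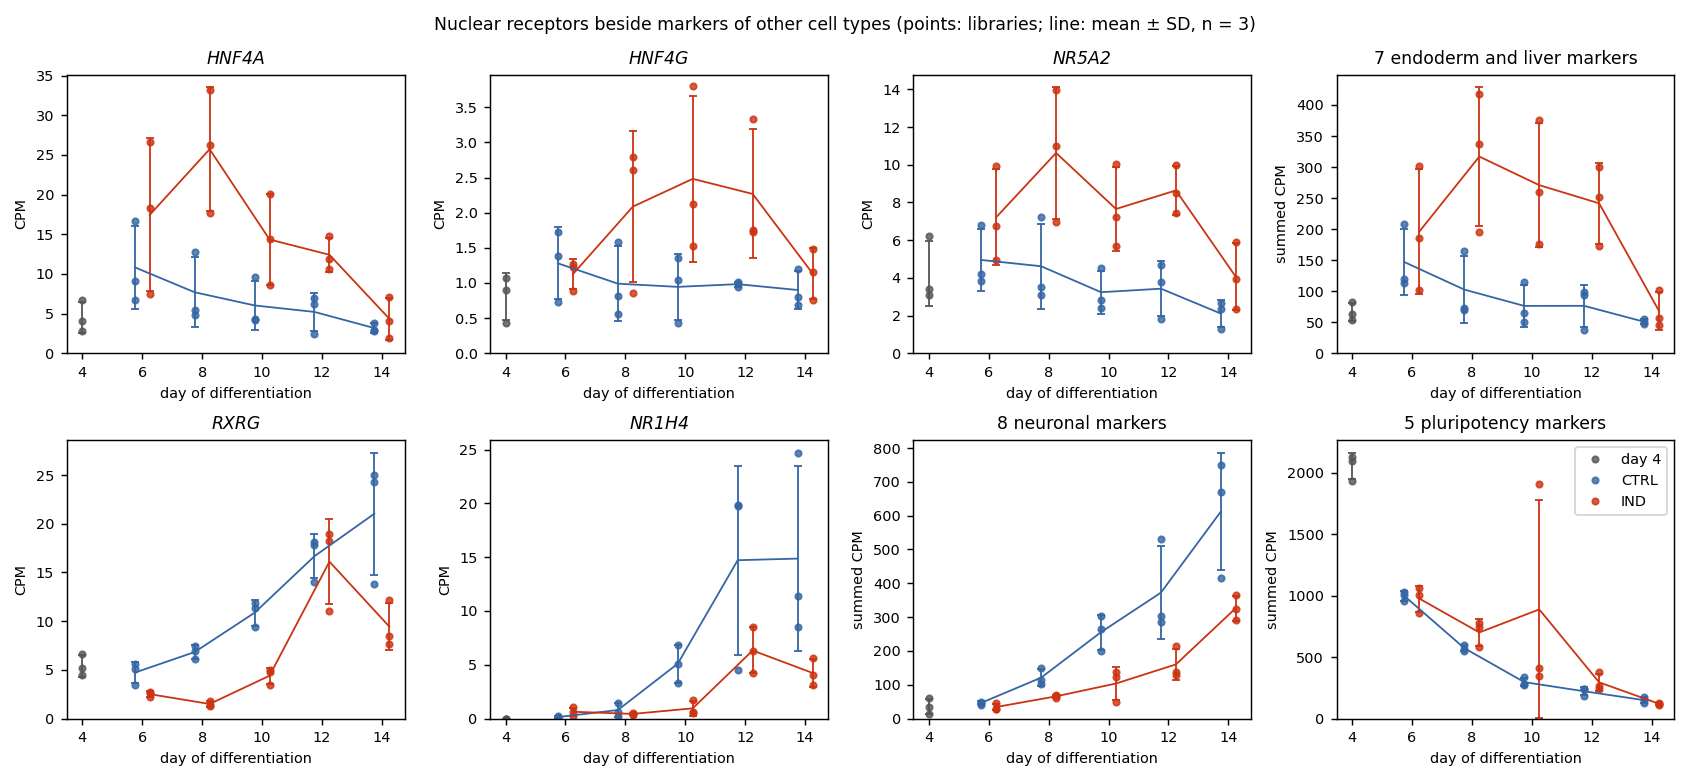
Levels in CPM by day of HNF4A, HNF4G, NR5A2, RXRG and NR1H4 beside the summed CPM of endoderm and liver, neuronal and pluripotency markers; points are libraries, lines join means and bars are 1 SD (n = 3). The endoderm sum is above CTRL in every IND library at days 8, 10 and 12, the neuronal sum is below it from day 8, and 1 IND library of day 10 has a pluripotency sum of 1912 CPM.

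NR6A1, an orphan that represses pluripotency genes in differentiating cells, was at 130.7, 125.1 and 114.5 CPM in CTRL and at 185.6, 175.9 and 159.1 CPM in IND at day 8 (0.50 ± 0.08, edgeR adjusted p = 0.00189). The groups did not overlap, and the call held under each alternative run. The IND mean at day 8, 173.5 CPM, lay between the CTRL means of day 6 (257.5 CPM) and day 8 (123.4 CPM). Summed pluripotency markers were at 551.2 to 597.6 CPM in CTRL and 578.7 to 779.1 CPM in IND at day 8. In CTRL at day 6 they were at 957.1 to 1031 CPM. None of these markers was called in IND at day 8, and their part in the NR6A1 result was not tested. The oestrogen-related receptor ESRRG was at 4.02, 5.29 and 5.00 CPM in CTRL and at 7.34, 7.47 and 9.33 CPM in IND at day 6 (0.77 ± 0.19, edgeR adjusted p = 0.0288). At day 8 it was at 5.57, 5.27 and 5.08 CPM in CTRL and at 7.75, 8.02 and 7.61 CPM in IND (0.57 ± 0.14, edgeR adjusted p = 0.0219). Both ESRRG comparisons were without overlap. The day 6 call was lost without CTRL replicate 1 or 3 or IND replicate 2 or 3 (highest edgeR adjusted p = 0.147), and the day 8 call without any library but IND replicate 3 (highest edgeR adjusted p = 0.111).

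ESRRB, a relative with a role in pluripotency, was at 3.21, 1.86 and 1.18 CPM in CTRL and at 0.518, 0.706 and 0.697 CPM in IND at day 14 (-1.70 ± 0.38, edgeR adjusted p = 0.013), a call lost without CTRL replicate 1 or IND replicate 1 or 3 (highest edgeR adjusted p = 0.109). ESRRA, the metabolic member, was called on no day in IND. Of 15 coregulators, through which receptors act on chromatin, 1 was higher and 2 lower at day 8, beside 14.2% of all genes called. At day 12, 1 was lower, beside 5.42%. At day 10, 3 were lower without IND replicate 2, beside 18.2%, but none with it. Among the coregulators called were PPARGC1A (1.17 ± 0.33 at day 8), which partners ESRRA and the PPARs, and its relative PPARGC1B (-1.33 ± 0.30 at day 8 and -1.62 ± 0.26 at day 12).

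Of the steroid receptors, the mineralocorticoid receptor NR3C2 was at 0.466, 0.698 and 0.481 CPM in CTRL and at 1.21, 1.97 and 0.814 CPM in IND at day 8 (1.28 ± 0.39, edgeR adjusted p = 0.0499). The groups were apart, but the call was lost without any library but IND replicate 3 (highest edgeR adjusted p = 0.24). The glucocorticoid receptor NR3C1 was not called, with a day 14 mean of 28.1 ± 3.66 CPM in CTRL and 37.2 ± 4.53 CPM in IND (0.41 ± 0.12 log2, edgeR adjusted p = 0.053). Of 9 targets of these receptors, 2 were higher and 3 lower at day 8, 1 was higher at day 10 (3 higher and 2 lower without IND replicate 2) and 1 lower at each of days 12 and 14. At day 8 SGK1, a kinase of sodium transport, rose by 1.57 ± 0.25, while KLF9, FKBP5 and DUSP1 changed by -1.67 ± 0.23, -0.49 ± 0.09 and -0.53 ± 0.12. 

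The immediate early receptors NR4A1, NR4A2 and NR4A3 (NUR77, NURR1 and NOR1), which are induced by many stimuli without a ligand, were called in no IND comparison. Of 12 other immediate early genes, 2 were higher (FOS by 0.79 ± 0.22 and EGR1 by 0.71 ± 0.20) and 3 lower at day 8 (among them JUN, -0.65 ± 0.10, and ATF3, -0.78 ± 0.15), 1 was lower at each of days 6 and 14, and 3 were lower at day 10 without IND replicate 2 but none with it. Among receptors outside the 39, RARB was higher (0.48 ± 0.07) and NR0B1 lower (-1.39 ± 0.33) in IND at day 8.

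Without IND replicate 2, 13 of 36 tested receptors were called at day 10 instead of 2, beside 18.2% of all genes (8.74% higher and 9.51% lower) instead of 2.03%. The 9 higher ones were NR2F1, NR6A1, PPARG, NR5A2, RORA, RXRA, NR1D2, ESRRG and NR2F6, and the 4 lower ones were RXRG, RARA, NR2C2 and NR1H4. RORA then differed by 0.81 ± 0.17 (edgeR adjusted p = 0.00539), RXRA by 0.28 ± 0.06 (edgeR adjusted p = 0.00559) and RARA by -0.30 ± 0.08 (edgeR adjusted p = 0.0165). NR2F6 was at 406.2 CPM in the library left out and at 165.5 and 157.7 CPM in the other two, and its log2 fold change went from 0.83 to 0.23. At day 12, 7 of 36 were called without IND replicate 1 instead of 2, beside 9.65% of all genes. NR2F1, RXRA, RORA and HNF4G were then higher and RARA, NR2C2 and RARG lower, with log2 fold changes of 1.38 ± 0.31 for HNF4G (edgeR adjusted p = 0.0212) and -0.55 ± 0.08 for RARA (edgeR adjusted p = 0.0037), while NR5A2 was not called (1.44 ± 0.36, edgeR adjusted p = 0.0557). In that fit 3 genes responding to retinoic acid were higher instead of 2. Lower coregulators were 2 instead of 1, and lower gonadal and coelomic markers 2 instead of 3. Of the clock genes 1 was higher and 1 lower instead of none. Of the targets of NR3C1 and NR3C2, 2 were higher instead of 0, and 1 stayed lower. PPAR targets and immediate early genes had 1 higher call each instead of 0, and LXR targets stayed at 0.

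**Figure D4:**
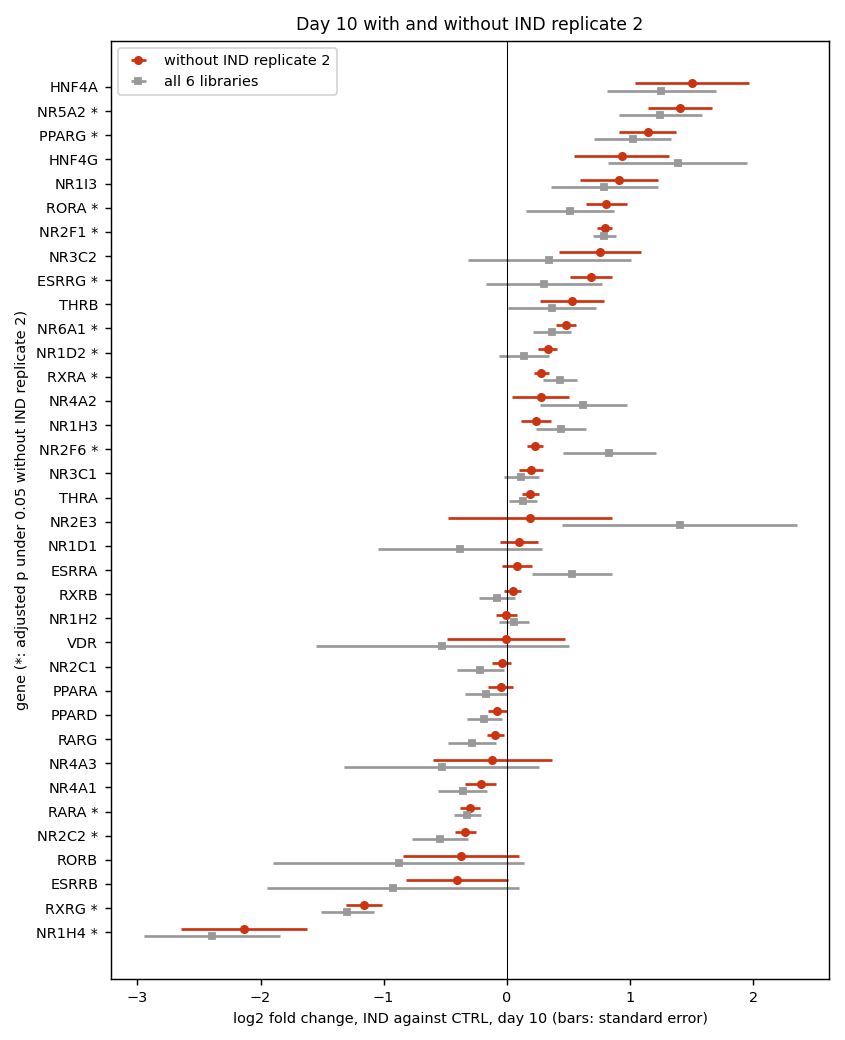
Log2 fold changes of the 36 receptors tested at day 10, IND against CTRL, with all 6 libraries (grey squares) and without IND replicate 2 (red circles); bars are standard errors and an asterisk marks the 13 genes called without that library. NR2F1 and RXRG have like values in both, whereas NR2F6 moves from 0.83 to 0.23.

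The comparison of each CTRL day with day 4 (DIFF) described the course of differentiation without induction, and the 5 comparisons share the day 4 libraries. Of the receptors tested, the numbers called by day were 12 of 32, 15 of 33, 17 of 34, 21 of 35 and 20 of 35. The shares of all genes called were 21.6%, 37.1%, 45.1%, 48.1% and 47.6%. In all, 22 receptors were called at least once and 11 on all 5 days, and 8 of the 22 were also called in IND. Higher calls outnumbered lower calls on each day, with 8 and 4 at day 6 (11% of all genes higher and 10.6% lower), 10 and 5 at day 8 (18.1% and 18.9%), 13 and 4 at day 10 (23.1% and 22%), 16 and 5 at day 12 (24.4% and 23.8%) and 15 and 5 at day 14 (24.6% and 22.9%).

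The receptors that fell were few. NR6A1 fell on each day, from a mean of 373.2 ± 37.6 CPM at day 4 to 257.5 ± 4.56, 123.4 ± 8.21, 68.1 ± 6.87, 56.0 ± 2.39 and 46.4 ± 7.12 CPM, and at day 12 the log2 fold change was -2.74 ± 0.11 (edgeR adjusted p = 1.04e-06). ESRRA was at 38.2 ± 8.76 CPM at day 4 and at 15.3 ± 1.46 CPM at day 8 (-1.31 ± 0.17, edgeR adjusted p = 0.000506). RARG fell from 114.8 ± 2.45 CPM to between 58.4 and 66.9 CPM and NR4A1 from 26.1 ± 1.66 CPM to between 14.9 and 18.7 CPM on the 5 days. RORB, a neural ROR, fell from 1.31 ± 0.47 CPM to 0.415 ± 0.187 CPM at day 14 and was called at days 8, 12 and 14.

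Of the hormone and lipid receptors, RXRB rose from 24.7 ± 2.71 CPM to 71.8 ± 2.65 CPM at day 14 (1.55 ± 0.12, edgeR adjusted p = 9.74e-06), and its reads may include those of SLC39A7 on the other strand. RXRG rose from 5.44 ± 1.13 CPM to 21.0 ± 6.28 CPM at day 14 (1.96 ± 0.26, edgeR adjusted p = 0.000271). THRA rose from 42.3 ± 4.77 to 95.5 ± 3.02 CPM, and THRB from 1.40 ± 0.20 to 5.35 ± 1.22 CPM. PPARA rose early, from 10.4 ± 1.79 CPM to 33.5 ± 3.54 CPM at day 8 (1.69 ± 0.15, edgeR adjusted p = 7.28e-05), and was at 22.7 ± 2.82 CPM at day 14. PPARG was called from day 10 and reached 2.24 ± 0.31 CPM at day 12 from 0.284 ± 0.189 CPM.

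NR3C1 rose from 4.42 ± 2.17 CPM to 13.2 ± 1.56, 16.7 ± 0.36, 24.5 ± 0.79 and 28.1 ± 3.66 CPM at days 8, 10, 12 and 14 (2.67 ± 0.34 at day 14, edgeR adjusted p = 0.000193). Of the 9 glucocorticoid and mineralocorticoid targets 8 were tested at day 14, and 5 were higher and 1 lower, beside 24.6% and 22.9% of all genes. The PPAR targets had 5 higher and 2 lower of 8, the immediate early genes 7 and 1 of 12, and the clock genes 6 and 1 of 15. Retinoic acid responsive genes had 4 and 3 of 9, LXR targets 2 and 3 of 7, and coregulators 3 and 4 of 15. A link of the targets to NR3C1 was not tested. NR2F1 peaked early, at 163.6 ± 20.9 CPM at day 6 against 78.0 ± 14.8 CPM at day 4 (1.06 ± 0.16, edgeR adjusted p = 0.000768), and was higher than day 4 on each later day. HNF4A was called at day 6 only, at 10.8 ± 5.20 CPM against 4.53 ± 1.94 CPM. The NR4A genes diverged: NR4A1 fell, NR4A2 rose to 2.36 ± 0.28 CPM at day 12 from 1.22 ± 0.34 CPM, and NR4A3 rose to 1.54 ± 0.58 CPM at day 14.

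A few receptors were at or near 0 counts at day 4. NR1H4 had 0 counts in all 3 day 4 libraries and was at 5.10 ± 1.77, 14.7 ± 8.80 and 14.9 ± 8.62 CPM at days 10, 12 and 14, at least 46.8-fold, 135-fold and 136-fold higher than the level of 3 counts in a day 4 library. ESRRB had 3, 0 and 0 counts at day 4 and was at 2.08 ± 1.03 CPM at day 14 (edgeR adjusted p = 0.00052). VDR had 0, 4 and 5 counts at day 4 and was at 2.17 ± 0.57 CPM at day 14 (edgeR adjusted p = 0.000511). At these depths a lower level at day 4 was not detectable. Over the same days the summed level of the neuronal markers rose, with 8 of 8 called higher at days 12 and 14, as were 5 of 5 neural crest and glial markers from day 8; their part in these values was not tested.

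Without day 4 replicate 3, the receptors called were 12, 17, 22, 23 and 25 at days 6 to 14. All genes called rose as well, to 5673, 8722, 10479, 10805 and 9865 from 3963, 6946, 8613, 9279 and 8886 with all libraries. Of the 85 DIFF calls, 65 held when any 1 library was left out. At day 6, calls were lost without day 4 replicate 1 for NR6A1 (edgeR adjusted p = 0.057), without day 6 CTRL replicate 1 for ESRRB (edgeR adjusted p = 0.0576), and without either of these for PPARD (highest edgeR adjusted p = 0.0736). Also at day 6, HNF4A lost its call without day 4 replicate 1 or 3 or CTRL replicate 1 or 2 (highest edgeR adjusted p = 0.142), NR4A1 without day 4 replicate 1 or CTRL replicate 2 or 3 (0.158), RXRA without day 4 replicate 1 or CTRL replicate 1 or 2 (0.103), and THRA without day 4 replicate 1 or CTRL replicate 1 or 3 (0.11). At day 8, ESRRB lost its call without CTRL replicate 1 or 3 (highest edgeR adjusted p = 0.0931), and PPARD, RARA, NR4A3 and RORB without any CTRL replicate (0.116, 0.168, 0.124 and 0.0868). Those 4 also lost it without day 4 replicate 1 (PPARD and RORB), 2 (RARA, NR4A3 and RORB) or 3 (NR4A3). At day 10, RARA lost its call without CTRL replicate 1 (edgeR adjusted p = 0.0563). NR4A2 lost its calls at days 10 and 12 without day 4 replicate 1 or 2 or any CTRL replicate (highest edgeR adjusted p = 0.173 and 0.0988). At day 12, NR2F1 and RORB did so without CTRL replicate 1 or 3 (0.0607 and 0.0604) and RXRA without day 4 replicate 1 or CTRL replicate 3 (0.0559). At day 14, RXRA lost its call without day 4 replicate 1 or 2 or CTRL replicate 1 or 2 (highest edgeR adjusted p = 0.102) and RORB without day 4 replicate 1 or 2 or CTRL replicate 2 or 3 (0.0887).

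With all libraries, in neither kind of comparison were NR1D1, NR1H2, NR1H3, NR1I3, HNF4G, NR2C1, NR2C2 or NR2E3 called.

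**Figure D5:**
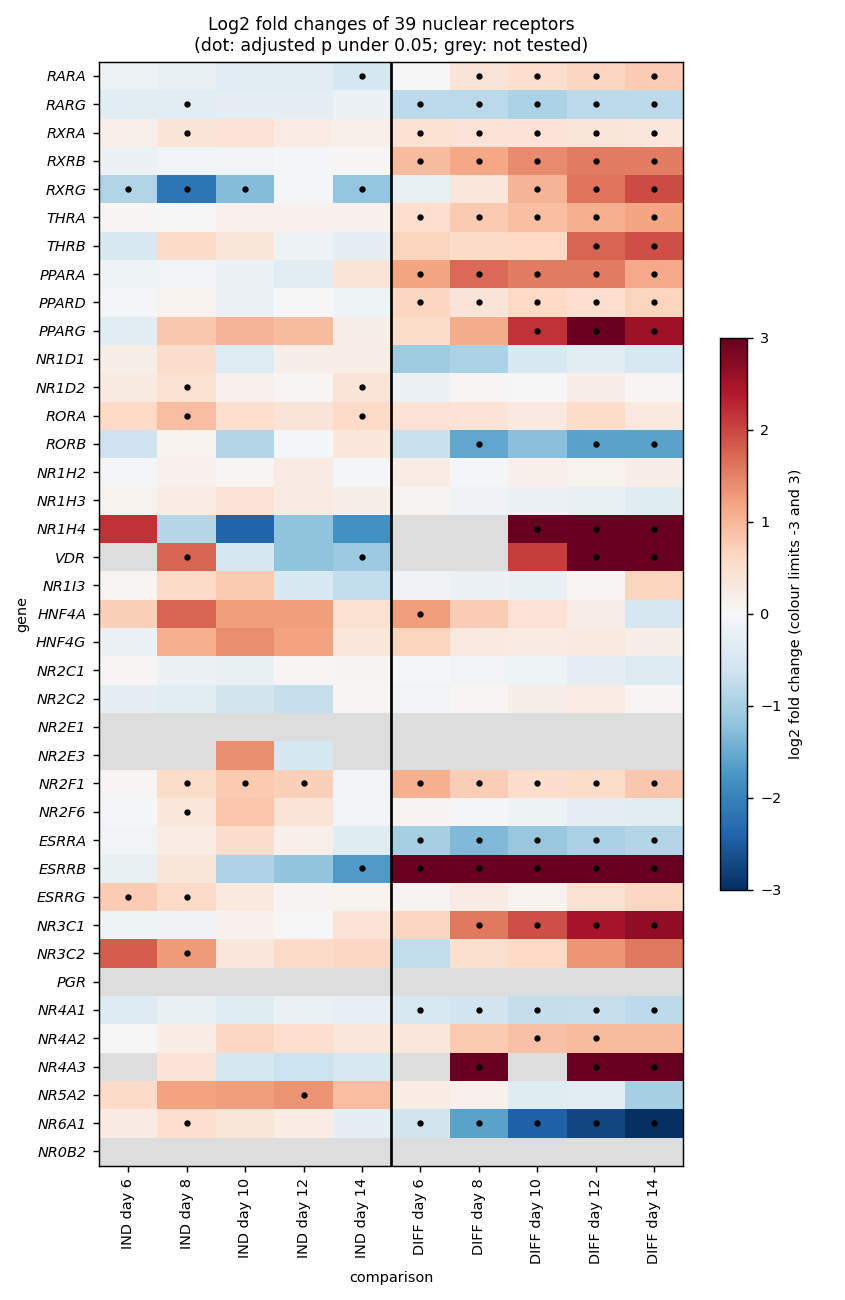
Log2 fold changes of the 39 receptors in the 5 IND comparisons (left) and the 5 DIFF comparisons (right); red is higher and blue lower, colours saturate at -3 and 3, a dot marks an adjusted p under 0.05 and grey cells were not tested. IND calls number 11 at day 8 and 2 at days 6, 10 and 12, while the DIFF comparisons hold 85 calls.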

How the data were processed

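Poly-A RNA of 33 libraries (3 for each of 11 groups) had been sequenced without keeping strand. Per the submitters' processing notes, the authors used fastp 0.23.2, HISAT2 2.0.5 and featureCounts 1.5.0-p3 on GRCh38. They deposited counts per gene, not normalised, and FPKM, which divide by gene length and depth and carry a further constant per library. Counts were tested, and FPKM served only to compare levels between genes.

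Each IND or DIFF comparison was fitted on its own 6 libraries with edgeR 4.0.16 (R 4.3.3; filterByExpr, TMM, robust quasi-likelihood test), with Benjamini-Hochberg adjustment over all genes tested and a threshold of 0.05. The interaction of day and induction (4 terms) used the 30 libraries after day 4. CPM are on the TMM sizes of all 33 libraries, and ± is the SD (n = 3) for a level and the standard error for a log2 fold change. Library totals were 23940837 to 51912815 counts. Libraries of a group differed by a chi-square of 7.819 to 245.8 per gene, so that the spread between them, beyond counting error, limits the precision. Floors (3 counts) cover counting error only. On simulated data, edgeR recovered 187 of 200 changed genes for IND at day 6 (18806 genes) and 160 of 200 for the interaction (19497 genes). False calls numbered 7 and 4. The planted changes were 2-fold or 4-fold, and of 100 at 2-fold 89 and 64 were recovered. The simulation gave every gene the same spread and had no library that stood apart. It therefore does not give the power for smaller changes or for the real groups.

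Alternatives were DESeq2 1.42.0, RLE size factors, other filters, a replicate block, 1 fit over all 33 libraries and leaving out each library. The members and gene lists were chosen with earlier results of these data known. Receptors called in IND or in the interaction are given by library, those called in DIFF with a change of 1 or more in log2 units, either way, by group means, and the rest by ranges and counts. From each gene list, at most 4 genes called with the largest IND changes are named, and some list genes are not reported here.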

Additional observations from a re-analysis of the deposited data

Results flagged for a closer look

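The IND effect on RXRG differed between days (edgeR interaction test of day and induction over 30 libraries, adjusted p = 0.00445). Its log2 fold change was -2.17 ± 0.20 at day 8, when all 3 IND libraries lay below all 3 CTRL libraries, and at day 12 the groups overlapped. The adjusted p stayed under the threshold in all 35 alternatives run, with 0.0188 as the highest when 1 library was left out.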

How the results depend on the processing

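No called value changed sign under an alternative. Among receptors that were not called, NR1D1 went from -0.38 to 0.10, RXRB from -0.08 to 0.05 and NR1H2 from 0.06 to -0.003 (log2) at day 10 without IND replicate 2. DESeq2 called 5 receptors instead of 2 at day 10, 5 instead of 2 at day 12 and 5 instead of 1 in the interaction (genes: 1787 instead of 404, 1956 instead of 1080 and 1283 instead of 533). A single fit over all 33 libraries called 1, 5, 8 and 2 receptors at days 6, 8, 10 and 14 instead of 2, 11, 2 and 6 (genes: 464, 1599, 3325 and 861 instead of 700, 2752, 404 and 1606). Without a filter on low counts, 5 receptors were called at day 6, 5 at day 12 and 8 in the interaction (genes: 1209, 1878 and 2360, and 2448 at day 14), and with a mean of at least 50 counts 1 at day 6 and 1 at day 12. Some receptors with no IND call in the main fits were called in an alternative, among them HNF4A, HNF4G, NR1H4, NR2C2, NR3C1, PPARA and PPARG. The cause of these changes was not tested. Same-numbered libraries did not deviate together (correlations of -0.107 to 0.078 in IND, 0 of 15 over 0.1, and -0.109 to 0.138 in DIFF, 2 of 15 over 0.1), so the numbers were not taken to pair samples; with the replicate block, edgeR called 0 receptors and 15 genes at day 10, where 8 receptors had an unadjusted p under 0.05 in that fit and DESeq2 without the block called 5.

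With each library left out in turn, receptors called ranged from 0 to 4, 5 to 13, 0 to 13, 0 to 7 and 1 to 6 in IND at days 6 to 14, from 6 to 13, 10 to 17, 15 to 22, 17 to 24 and 18 to 25 in DIFF, and from 1 to 4 in the interaction. Genes called ranged from 348 to 915, 1321 to 4732, 11 to 3768, 417 to 1979 and 905 to 1987 in IND, from 2312 to 5673, 4506 to 8722, 6247 to 10479, 7129 to 10805 and 6750 to 9865 in DIFF, and from 340 to 1016 in the interaction. The 3768 genes and 13 receptors at day 10 were without IND replicate 2, and the 11 genes without CTRL replicate 2. Fewer libraries enter these fits.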
